A study of Gallus gallus with 12 samples.

Results

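The 65 genes described here encode the proteins of the cytosolic ribosome, the particle that makes all proteins of the cell other than those made inside mitochondria. They were chosen by gene symbol: a chicken probe set counted when it carried exactly 1 symbol of the form RPL or RPS followed by a number, or the symbol RPLP0, RPLP1, RPLP2 or RPSA, with the ribosomal S6 kinases left out. Each gene was represented by its brightest probe set over the 12 arrays, which gave 65 genes of 13008 with a symbol of their own on the array, or 138 of 37693 chicken probe sets before 1 was kept per gene. By symbol, 35 belonged to the large (60S) subunit, 21 to the small (40S) subunit, 3 to the stalk of the large subunit, and 6 had the name of a paralog (RPL3L, RPL7L1, RPL22L1, RPL26L1, RPL39L and RPS27L). For RPL26L1 and RPL39L the RefSeq gene table (assembly GRCg7b) lists RPL26 and RPL39 as synonyms, so in chicken these symbols may stand for the canonical genes.

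RNA came from the maxillary prominence of chicken embryos, the bud at the side of the upper face, dissected as mesenchyme together with its epithelium. At Hamburger-Hamilton stage 15 each embryo received 2 beads in the side of the head. The Noggin+RA embryos had a bead soaked in Noggin, an extracellular antagonist of BMP ligands, and a bead soaked in all-trans-retinoic acid (RA), which is made from vitamin A and acts through nuclear receptors, each soaked at 1 mg/ml. The Noggin+DMSO embryos had Noggin and the RA solvent dimethylsulfoxide (DMSO), the Tris+RA embryos RA and the Noggin buffer Tris, and the Tris+DMSO embryos, the controls, both vehicles. Prominences were taken 16 h later at stage 18, and 12 to 15 embryos were pooled per array, with 3 arrays a group. No group was left without beads, and the pools do not tell how much of the tissue a bead reached.

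Ribosomal proteins are made in near equal numbers and are assembled with ribosomal RNA in the nucleolus. In vertebrates their mRNAs begin with a 5' terminal oligopyrimidine (TOP) tract, through which growth signals carried by mTOR control their translation more than their amount. Shortage of single ribosomal proteins or of ribosomal RNA in humans and mice releases RPL5 and RPL11, which bind MDM2 and stabilise p53, and facial neural crest is one of the tissues known to be sensitive to it. RPL38 is known in mouse embryos for a role in the translation of Hox mRNAs.

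The deposited values are linear intensities scaled to a common trimmed mean of 150.0 per array. Most of the 65 probe sets kept, 1 per gene, lay at the top of that scale. On every array 58 of the 65 were above the 95th percentile of chicken probe sets. On every array 55 were above the 98th percentile of the whole table, that is, above the range from which the scaling mean was taken. Each was kept as the brightest of its gene, which raises these counts for genes with several probe sets. The 73 ribosomal probe sets not kept had means from 2.20 to 5505. The probe set of RPS2, a small subunit protein near the mRNA entry, had the highest value of all on each of the 12 arrays, between 6300.0 and 8307. Brightness depends on the probes, so signals are not compared between genes as amounts of RNA. Together the 65 genes took 2.79% to 3.60% of the summed chicken intensity. Of the 7 genes below the 95th percentile on at least 1 array, RPL22L1, RPL23, RPL34, RPS27L, RPL31 and RPS13 were above background on all 12 arrays. The other was RPL3L, the paralog that replaces RPL3 in the heart and skeletal muscle of mammals. It had a mean of 24.4, was above the background level of its array (the 95th percentile of 689 virus and other non-chicken probe sets) on 0 arrays, and was the 1 gene that failed the filter, leaving 64 tested. RPS13, a small subunit protein, was also dim by its best own probe set (mean 60.5), while a further probe set annotated to both GNAL and RPS13 had a mean of 4717. That probe set carries 2 symbols and stayed outside the rule, as did RPSAP58 (mean 5038) and RPS4Y1 (mean 5091), for which the RefSeq table gives RPSA and RPS4X among the synonyms. None of these 3 probe sets was called in any comparison.

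On the log2 scale most of the 64 genes varied less than the median tested probe set. The SD of log2(intensity + 16) over the 12 arrays had a median of 0.129 among them, against 0.226 over all 21354 tested probe sets. Of the 64 genes, 61 lay below that second value. Most of these genes are far brighter than the typical probe set, and their spread was not compared with that of other probe sets of like brightness. For the middle gene the highest array was 1.38 times the lowest, with a range over genes of 1.19 to 2.03 times. RPS14, a small subunit protein, had the smallest SD at 0.0821. Its intensity was 4229.7, 4577 and 4336 in the Noggin+RA pools, 3947, 4189.9 and 3929.6 in the Noggin+DMSO pools, 4182, 3939 and 4276 in the Tris+RA pools and 4406, 4003 and 3757 in the Tris+DMSO pools, with the groups overlapping. RPS15A (SD 0.0877), RPL7L1 (0.0897), RPL39L (0.0921) and RPL7A (0.0941) came next. The largest SD of a tested gene was 0.267 for RPL36 of the large subunit, followed by RPS13 (0.245), RPL22L1 (0.232), RPL34 (0.212) and RPL36A (0.205). RPS13 and RPL34 are among the dimmest 5 of the tested genes.

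**Figure D1:**
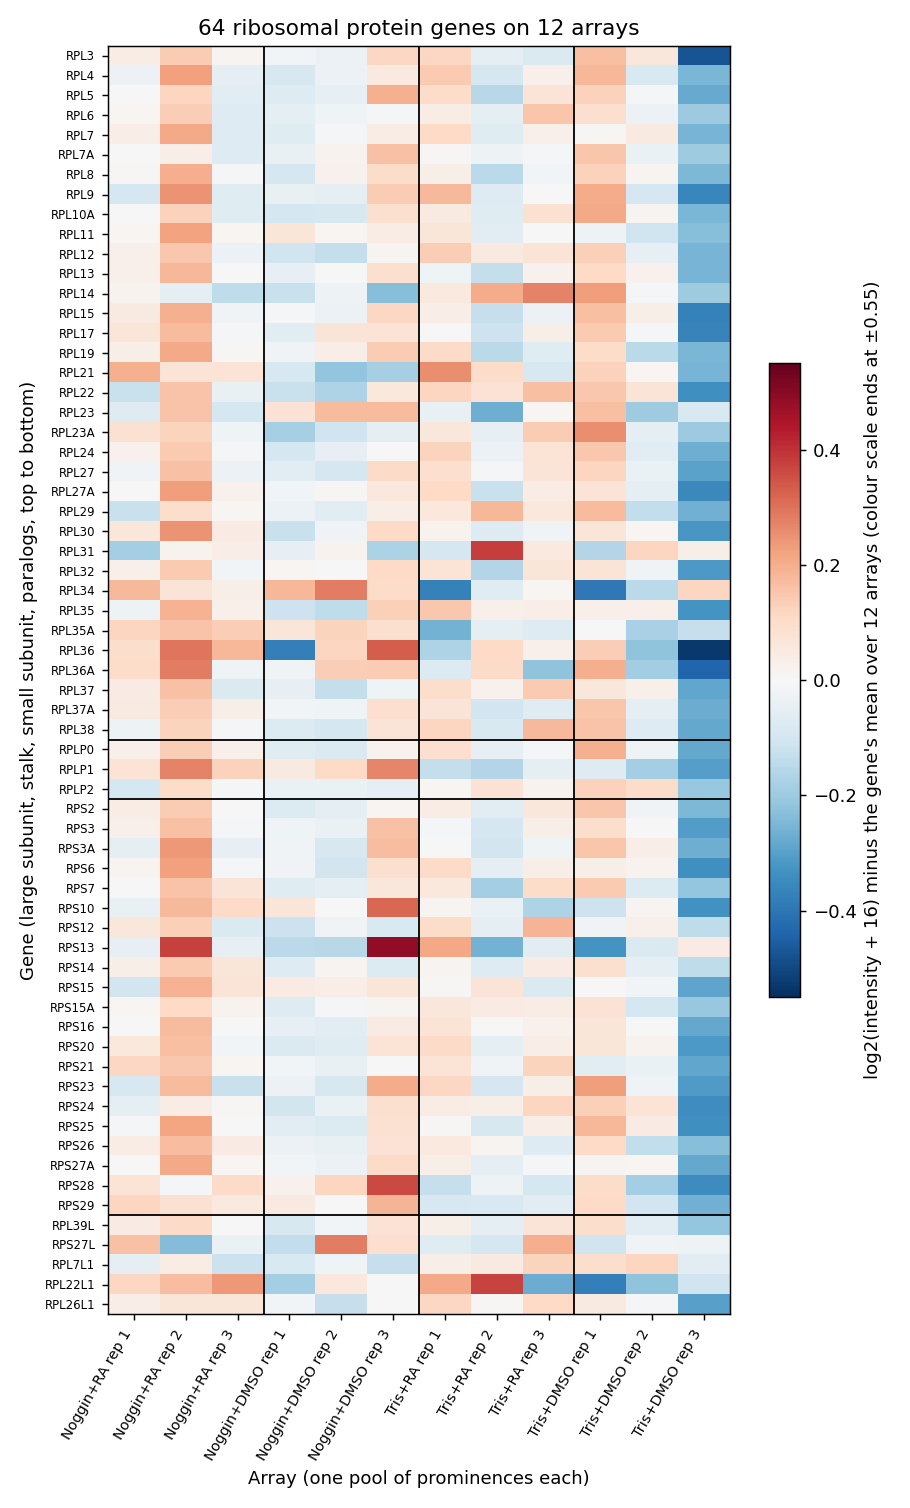
Each row is 1 of the 64 tested genes and each column 1 array, grouped by treatment; colour gives log2(intensity + 16) minus the gene's mean over the 12 arrays. The column of Tris+DMSO replicate 3 is blue for all but 3 genes, and that of Noggin+RA replicate 2 is red for 61.

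Most of the genes rose and fell together from array to array. The correlation between 2 of the genes over the 12 arrays had a median of 0.677 (2016 gene pairs, 89.6% of them positive), and 0.751 when each group's mean was removed first. All pairs share the same 12 arrays and the same scaling, so these are descriptions. Measured as the mean deviation of the 64 genes from their own 12-array averages (log2), the Noggin+RA arrays lay at 0.018, 0.15 and 0.0025, the Noggin+DMSO arrays at -0.052, -0.019 and 0.079, the Tris+RA arrays at 0.042, -0.032 and 0.026, and the Tris+DMSO arrays at 0.076, -0.037 and -0.25. The groups overlapped, and the control group held both one of the highest arrays and the lowest.

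Tris+DMSO replicate 3 stood apart. It was the lowest of the 12 arrays for 55 of the 64 genes, and their share of the summed intensity was 2.79% there, against 3.19% to 3.60% on the other 11. The value exceeded by the brightest 1% of all chicken probe sets was lowest there too, at 2413, against 2513 to 2886 on the others. The summed signal of the 9 red blood cell markers measured, the 4 globins among them, was also lowest on it, at 11773 against 17501 to 27233 on the others. The sums of the skeletal muscle markers (964) and of the neuron and cranial ganglion markers (1494) were the lowest of the 12 arrays there too. Other marker sums were not low there. Those of white blood cells (1688) and of retina and pigment epithelium (820.3) were the highest of the Tris arrays. Those of facial mesenchyme, surface epithelium, endothelium and lens were neither the lowest nor the highest. The GAPDH 5' over 3' ratio of Tris+DMSO replicate 3, a measure of RNA integrity, was 0.839, against 0.813 and 0.819 on the other control arrays. The part of these measures in the low ribosomal values was not tested. Noggin+RA replicate 2 was the highest array for 33 genes. Because Tris+DMSO replicate 3 is a control array, the medians of all 64 genes in the comparisons that use it, except the interaction, are also given without it. Those of the subunits are not. These arrays were singled out by their values of these same genes. Leaving out a low control array or a high treated array therefore lowers the medians of treated minus control by construction.

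**Figure D2:**
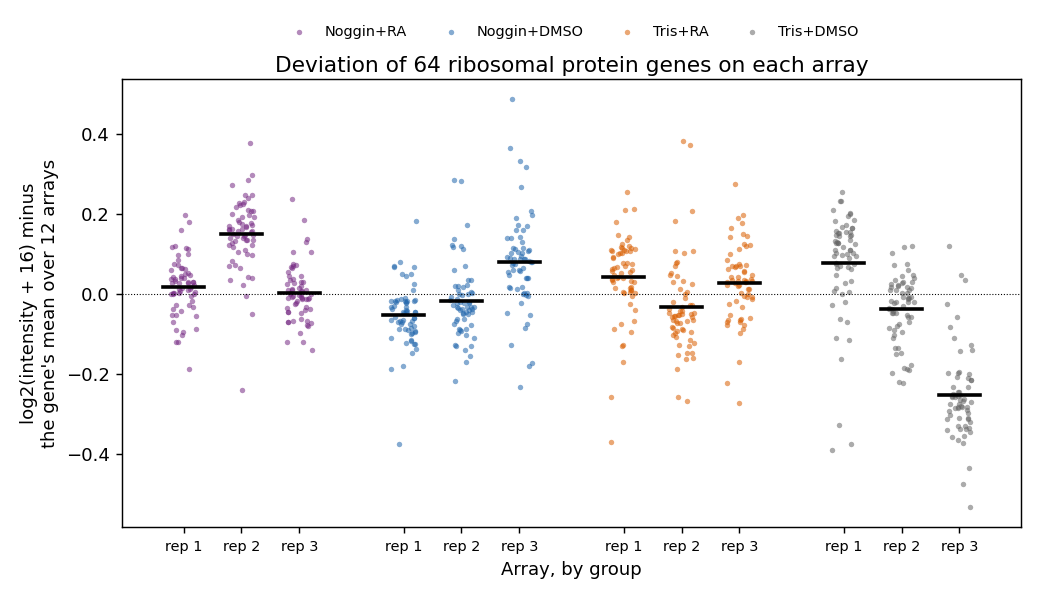
Points are the 64 genes on each of the 12 arrays, as log2(intensity + 16) minus the gene's mean over all arrays, and black bars are the mean of the 64 on that array. The bar of Tris+DMSO replicate 3 is at -0.25 and the other 11 bars lie between -0.052 and 0.15.

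Both subunits moved together. The mean deviation of the 35 large subunit genes minus that of the 21 small subunit genes stayed between -0.051 and 0.045 on every array. The gene that followed the rest most closely was RPS16, with r = 0.967 against the mean of the other 63 over the 12 arrays. The lowest r were those of RPL31 (-0.329), RPL34 (-0.293), RPS27L (-0.142), RPL22L1 (0.0974) and RPL7L1 (0.196). Whether any of these differs from 0 was not tested, and 12 arrays leave an r of this size uncertain. RPL31, a large subunit protein near the exit of the peptide tunnel, had 181, 212 and 214 in the Noggin+RA pools, 201, 211 and 183 in the Noggin+DMSO pools, 194, 276 and 217 in the Tris+RA pools and 185, 227 and 214 in the Tris+DMSO pools. It was highest on Tris+RA replicate 2, and the other 11 arrays lay between 181 and 227. Of these 5 genes, 3 have paralog names, and RPL31, RPL34 and RPS27L are also among the dimmest of the tested genes.

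With both factors present, no ribosomal protein gene passed the test in Noggin+RA against Tris+DMSO. By limma 0 of 64 passed an adjusted p below 0.05, where 0.810% of all tested probe sets did, and 3 (RPL22L1, RPL35A and RPLP1, all higher) had an unadjusted p below 0.05, against 14.7% of all. The largest difference was that of RPL22L1, the paralog of RPL22, a large subunit protein that mice can live without. RPL22L1 had 1473, 1531 and 1604 in the Noggin+RA pools, against 1045, 1163 and 1258 in the Tris+DMSO pools (log2 difference 0.41, SE 0.155, adjusted p = 0.251). The groups do not overlap, but the gene's Tris+RA values, 1575, 1762 and 1122, spanned both. The other tested probe set of RPL22L1, with a mean of 67.8, had a log2 difference of -0.12. RPL36 followed at 0.40 (adjusted p = 0.374) and RPLP1 at 0.34 (adjusted p = 0.172). The other probe set of RPL36, nearly as bright with a mean of 3306, had a log2 difference of 0.082 (limma adjusted p = 0.739). At the low end were RPL7L1 at -0.096, RPL14 at -0.066 and RPL31 at -0.039. The 3 arrays of each group did not overlap for 5 genes, all higher (RPL11, RPL22L1, RPL35A, RPLP1 and RPS21). This is 7.81% of the 64, where 11.0% of all tested probe sets were higher without overlap.

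The set as a whole was shifted slightly upward in that comparison, and the size of the shift depended on single arrays. The median log2 difference of the 64 genes was 0.12, beside a median of 0.038 over all tested probe sets. Of the 64 genes 60 were above 0, where 56.6% of all tested probe sets were. Without Tris+DMSO replicate 3 the median was 0.022 with 39 of 64 above 0, and without that array and Noggin+RA replicate 2 it was -0.036. Of the fits that leave out 1 array, the one without Tris+DMSO replicate 3 had the lowest median, and others had a higher median than the full fit. Since the genes move together by array, they are not independent replicates of a shift. The 95% confidence interval lay within a 1.5-fold change either way for 60 of the 64 genes, and the widest upper limit was 1.77-fold, for RPL36.

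Noggin alone, in Noggin+DMSO against Tris+DMSO, gave the same count of 0 of 64 where 4.95% of all tested probe sets were called. An unadjusted p below 0.05 was reached by 3 genes (RPL34, RPLP1 and RPS28, all higher), against 24.7% of all probe sets. RPS28, a small subunit protein at the mRNA exit, had 3327, 3555 and 4218 in the Noggin+DMSO pools, against 3513, 2869 and 2573 in the Tris+DMSO pools (log2 difference 0.31, SE 0.130, adjusted p = 0.165). Noggin+DMSO replicate 3 was the highest and the groups overlapped. RPL34 was at 0.33 (adjusted p = 0.183) and RPLP1 at 0.33 (adjusted p = 0.0913), and at the low end were RPL14 at -0.14, RPL7L1 at -0.13 and RPL21 at -0.12. Groups stood apart for 4 genes, all higher (RPL11, RPL35A, RPLP1 and RPS15), where 17.4% of all probe sets were higher without overlap. Of the 64 genes 50 were above 0, where 58.3% of all tested probe sets were. The median of the 64 genes was 0.056, below the 0.063 of all tested probe sets. It was -0.047 without Tris+DMSO replicate 3 and -0.053 when arrays were scaled to the same median, a change that moved the median of all probe sets to -0.045 as well.

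RA alone, in Tris+RA against Tris+DMSO, called 0 of 64 ribosomal genes and 0% of all tested probe sets. No gene of the set reached an unadjusted p below 0.05, where 6.41% of all probe sets did. The largest difference was again that of RPL22L1, at 0.34 (adjusted p = 0.780), followed by RPL36 at 0.19 and RPS21 at 0.19, and the smallest were those of RPL23 (-0.060), RPL35A (-0.025) and RPS3A (-0.016). RPL35 and RPS21 were the 2 genes higher without overlap (4.91% of all probe sets). The median was 0.079 beside -0.0099 over all, with 58 above 0, where 47.5% of all probe sets were. Without Tris+DMSO replicate 3 it was -0.015, with 26 above 0. These 3 comparisons share the Tris+DMSO arrays, so their upward medians are not separate observations.

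Adding RA to Noggin, in Noggin+RA against Noggin+DMSO, avoids those controls. No ribosomal gene was called (0.445% of all probe sets were), and RPL21, a large subunit protein, alone had an unadjusted p below 0.05 (9.44% of all). RPL21 had 2410.3, 2206 and 2212 in the Noggin+RA pools, against 1973, 1803 and 1851 in the Noggin+DMSO pools, without overlap (log2 difference 0.28, SE 0.125, adjusted p = 0.527). With RPL22L1, RPL23A, RPL26L1, RPLP0, RPS14 and RPS21 it was 1 of 7 genes higher without overlap, against 7.67% of all probe sets. The median was 0.055 beside -0.017 over all, with 56 above 0, where 46.5% of all probe sets were. It came to -0.00086 when 1 array was left out, Noggin+RA replicate 2. The largest differences were 0.28 for RPL21, 0.22 for RPL22L1 and 0.18 for RPL23A, and the smallest -0.15 for RPL23, -0.12 for RPS27L and -0.11 for RPS28.

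Adding Noggin to RA, in Noggin+RA against Tris+RA, called 0 of 64 genes as well (0.215% of all probe sets), with RPL35A and RPLP1 at an unadjusted p below 0.05 (13.7% of all). RPL30, RPL34, RPL35A, RPLP1, RPS28 and RPS29 were higher without overlap, 6 genes, against 12.7% of all probe sets. RPL14, a large subunit protein, was lower without overlap, as 1 of 64 genes, where 8.39% of all probe sets were lower in this comparison, so it does not stand out. No other gene of the set was lower without overlap in any of the 7 comparisons of groups. The share of all probe sets that were lower was counted only in this comparison. RPL14 had 3867, 3685 and 3462 in the Noggin+RA pools, against 3967, 4407 and 4617 in the Tris+RA pools (log2 difference -0.24, SE 0.125, adjusted p = 0.430). Its Tris+DMSO pools, 4484, 3789.8 and 3329.8, ran across both. The largest differences were 0.27 for RPLP1, 0.26 for RPL35A and 0.23 for RPL34, and the smallest -0.24 for RPL14, -0.16 for RPL31 and -0.12 for RPL22. The median of the set was 0.047, near the 0.038 of all probe sets, and was -0.026 with arrays scaled to the same median.

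Averaged over both states of RA, Noggin raised 1 ribosomal protein gene, RPLP1, an acidic protein of the stalk that recruits elongation factors to the ribosome. This comparison sets 6 Noggin arrays against 6 Tris arrays and called 11.2% of all tested probe sets, so that 1 of 64 is below the background share. RPLP1 had 3793, 4352 and 3942 in the Noggin+RA pools, 3734, 3894 and 4341 in the Noggin+DMSO pools, 3294, 3222 and 3476 in the Tris+RA pools and 3431, 3167 and 2921 in the Tris+DMSO pools. Every Noggin array was above every Tris array. The difference was 1.23-fold (log2 difference 0.30, SE 0.0755, adjusted p = 0.0294 by limma, 95% confidence interval 1.10 to 1.38-fold). The deviation of RPLP1 from its own average over all arrays was compared with the mean deviation of the other 63 genes. The deviation of RPLP1 minus theirs was 0.056 to 0.19 log2 on the 6 Noggin arrays and -0.17 to -0.050 on the 6 Tris arrays. Such deviations balance out over the arrays for any gene, and RPLP1 was singled out by this same comparison. The split in sign therefore largely restates the call and is not further support for it.

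The call for RPLP1 was close to its threshold and depended on the probe set and on the fit. The mean of its 5 probe sets gave log2 difference 0.090 (limma adjusted p = 0.476). That mean includes 2 probe sets that failed the filter, with intensities of 30.8 and 2.20 on average. The 2 other tested probe sets, with means of 719 and 106, had log2 differences of 0.13 and 0.16. These were above 0 as well but were not called. The GAPDH 5' over 3' ratio was lower with Noggin (0.695 ± 0.0409 against 0.815 ± 0.0266 with Tris, SD, n = 6 each, exact two-sided permutation p = 0.00216, the lowest possible with 6 against 6, or 0.00361 adjusted over 5 array measures). Of the other 4 measures, the EF1A 5' over 3' ratio was 0.582 ± 0.0560 with Noggin and 0.654 ± 0.0308 with Tris (adjusted exact permutation p = 0.0352), the median intensity 44.2 ± 2.52 with Noggin and 38.3 ± 2.17 with Tris (adjusted exact permutation p = 0.00361) and the middle value over the virus probe sets 6.36 ± 0.883 with Noggin and 4.87 ± 0.457 with Tris (adjusted exact permutation p = 0.00361). The actin ratio was 0.498 ± 0.0572 with Noggin and 0.533 ± 0.0162 with Tris (adjusted exact permutation p = 0.182). With the GAPDH ratio as a covariate RPLP1 had log2 difference 0.13, adjusted p = 0.896. The ratio did not overlap between the Noggin arrays (0.619 to 0.736) and the Tris arrays (0.784 to 0.849), so in that fit Noggin and the ratio can hardly be told apart, and the SE of the average Noggin difference was 2.65 times as large for the median probe set. The red blood cell marker sum was 21776 to 27233 with Noggin and 11773 to 23991 with Tris, and its part in the result was not tested. The call was also lost with arrays scaled to the same median (log2 difference 0.21, adjusted p = 0.106), with the replicate number as a block (adjusted p = 0.0521), and without any 1 of 5 arrays: Noggin+RA replicate 2 (adjusted p = 0.0608), Noggin+RA replicate 3 (0.0590), Noggin+DMSO replicate 3 (0.0710), Tris+RA replicate 1 (just above the threshold of 0.05) or Tris+RA replicate 2 (0.0612). In those 5 fits the log2 difference lay between 0.27 and 0.31.

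**Figure D3:**
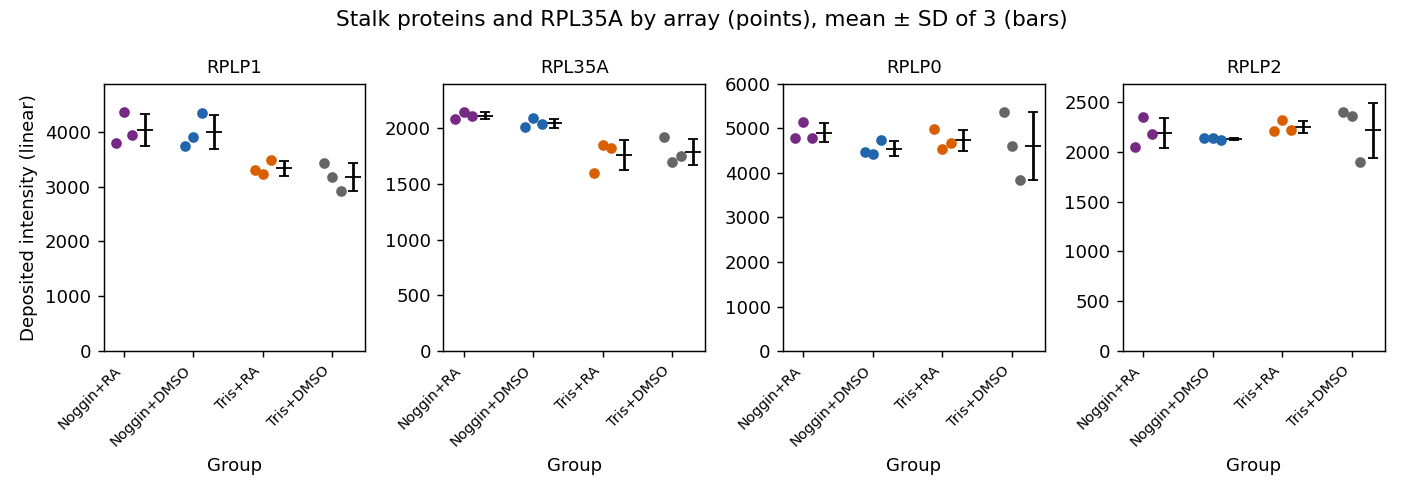
Deposited intensity (linear) of the 3 stalk genes and of RPL35A on each array, with points for arrays and bars for the mean ± SD of 3. RPLP1 and RPL35A are higher on all 6 Noggin arrays than on any Tris array, while RPLP0 and RPLP2 overlap.

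The partners of RPLP1 in the stalk were not called. RPLP0, which anchors the stalk to the ribosome, averaged 4724 ± 257 with Noggin and 4669 ± 504 with Tris (SD, n = 6 each; log2 difference 0.022, SE 0.0857, adjusted p = 0.878 by limma). RPLP2, which pairs with RPLP1, averaged 2163 ± 101 with Noggin and 2233 ± 179.9 with Tris (log2 difference -0.043, SE 0.0779, adjusted p = 0.739 by limma). Its 3 Noggin+DMSO pools lay at 2138, 2137 and 2122, and the Tris+DMSO pools at 2396, 2356 and 1898. Whether RPLP1 differs from RPLP2 in its response was not tested.

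RPL35A, a large subunit protein, also kept the 6 Noggin arrays above the 6 Tris arrays. It had 2084, 2144 and 2109.9 in the Noggin+RA pools, 2012, 2091 and 2038 in the Noggin+DMSO pools, 1602, 1850.5 and 1825 in the Tris+RA pools and 1918, 1694 and 1755 in the Tris+DMSO pools (log2 difference 0.23, SE 0.0688, adjusted p = 0.0521). It and RPLP1 were the 2 genes of the set higher without overlap, where 2.78% of all probe sets were. The 2 other tested probe sets of RPL35A, with means of 146 and 70.3, gave log2 differences of -0.068 and 0.15. RPL34 of the large subunit came next by adjusted p, with 600.3, 556 and 540.2 in the Noggin+RA pools, 602, 647 and 569 in the Noggin+DMSO pools, 405, 504 and 534 in the Tris+RA pools and 399, 475 and 575 in the Tris+DMSO pools (log2 difference 0.28, SE 0.102, adjusted p = 0.0892). Its highest Tris value, from Tris+DMSO replicate 3, exceeded 3 of the 6 Noggin values. Without that array RPL34 was called beside RPLP1, but leaving out the highest Tris value raises its difference by construction. RPS28 at 0.23 (adjusted p = 0.123) and RPS10, a small subunit protein at the mRNA entry, at 0.21 (adjusted p = 0.143) completed the 5 genes with an unadjusted p below 0.05, against 30.6% of all probe sets. The lowest were RPL14 at -0.19 (adjusted p = 0.176), RPL7L1 at -0.12 and RPL31 at -0.11.

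For the set as a whole the average Noggin difference was small and had no settled sign. Its median was 0.046 on the log2 scale, beside 0.057 over all tested probe sets. Of the 64 genes 49 were above 0, where 59.4% of all tested probe sets were. By role the medians were 0.045 for the 35 large subunit genes, 0.067 for the 21 small subunit genes, 0.022 for the 3 stalk genes and 0.041 for the 5 tested paralogs. The median was -0.045 with arrays scaled to the same median, a scaling that moves the differences of all probe sets by the same amount. It was 0.020 after quantile normalisation and -0.00020 without Tris+DMSO replicate 3. With the GAPDH ratio as covariate it was -0.15, in a fit where Noggin and the ratio can hardly be told apart. As single genes, all 64 had a 95% confidence interval within a 1.5-fold change either way, with outer limits of 0.769 (RPL14) and 1.43 (RPL36).

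Averaged over both states of Noggin, no ribosomal protein gene passed the test for RA. By limma 0 of 64 were called, where 0.820% of all tested probe sets were, and RPL21 and RPL22L1 had an unadjusted p below 0.05 (9.63% of all). RPL22L1 ranged between 1122 and 1762 on the 6 RA arrays (median 1553) and between 1045 and 1416 on the 6 DMSO arrays (median 1225). The ranges overlapped through 1 low Tris+RA pool (log2 difference 0.28, SE 0.110, adjusted p = 0.428). RPL22 itself had a difference of 0.12 (adjusted p = 0.779). RPL21 was at 0.20 (adjusted p = 0.497) and RPL36 at 0.18, with RPL23 (-0.10), RPL34 (-0.048) and RPS27L (-0.028) lowest. The other tested probe sets of RPL21, with means of 133 to 696, gave log2 differences of -0.13 to 0.094. No gene was higher without overlap, against 0.412% of all probe sets. The median was 0.067 beside -0.016 over all, with 59 above 0, where 45.1% of all probe sets were. Without Tris+DMSO replicate 3 it was 0.023, with 40 above 0. All 64 intervals lay within 1.5-fold, between 0.813 (RPL23) and 1.43 (RPL22L1).

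A difference between the effect of RA with Noggin and its effect without Noggin was not detectable at this number of arrays for any of the 64 genes. By limma the interaction called 0 of them and 0% of all probe sets, and 0 genes of the set had an unadjusted p below 0.05, against 5.97% of all. The largest values were 0.15 for RPL21, 0.12 for RPL23A and 0.093 for RPS14, and the smallest -0.18 for RPS27L, -0.17 for RPS28 and -0.16 for RPL29. The median of the set was -0.034 beside -0.0018 over all. Of the 64 genes 18 were above 0, where 49.7% of all probe sets were. Fits that leave out 1 array gave medians of both signs. With 3 arrays a group the intervals were wide, and 60 of 64 lay within 1.5-fold.

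**Figure D4:**
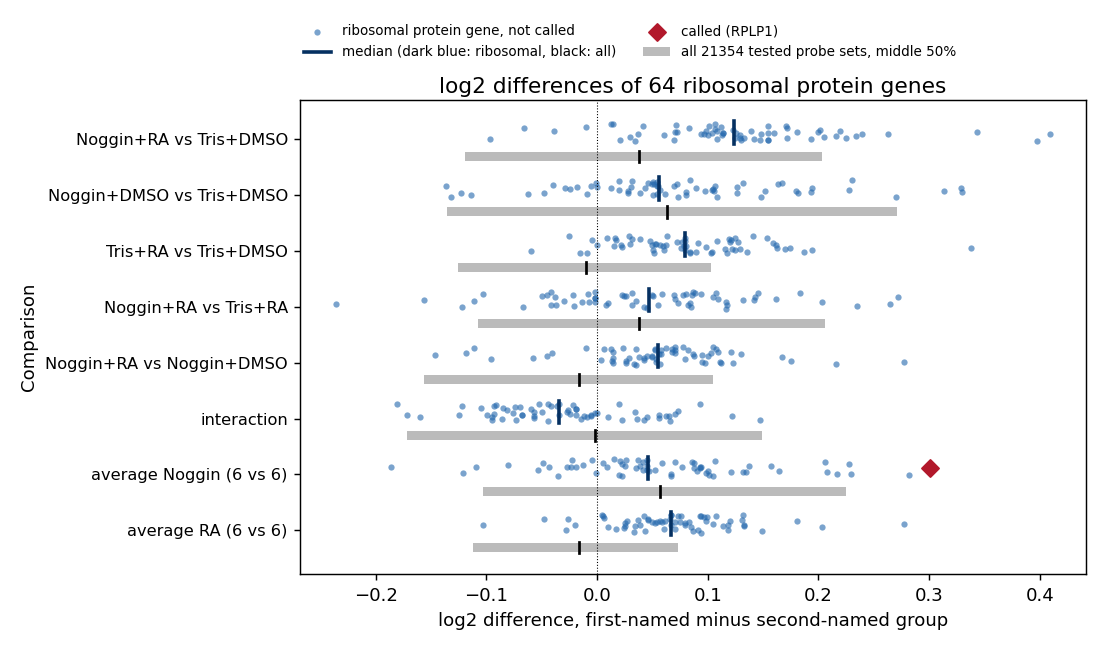
Each blue point is the log2 difference of 1 of the 64 genes in the comparison named on the left (first-named minus second-named group; the interaction is the effect of RA in Noggin embryos minus its effect in Tris embryos), and grey bars span the middle 50% of all 21354 tested probe sets. The single red diamond is RPLP1 at 0.30, and the genes lie between -0.24 and 0.41 in all comparisons.

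Among the remaining genes with a known special role, RPL5 averaged 3728 ± 292 with Noggin and 3622 ± 391 with Tris (SD, n = 6 each; log2 difference 0.045, limma adjusted p = 0.772). RPL11, its partner in the 5S particle that binds MDM2, averaged 4977 ± 296 with Noggin and 4580.2 ± 323 with Tris (0.12, limma adjusted p = 0.275). RPL38 averaged 5086 ± 303 with Noggin and 5128 ± 621 with Tris (-0.0049, limma adjusted p = 0.976), and RPL10A averaged 4650.0 ± 313 with Noggin and 4706 ± 496 with Tris (-0.013, limma adjusted p = 0.933). RPS6, the substrate of the S6 kinases, averaged 5254 ± 423 with Noggin and 5027 ± 511 with Tris (0.067, limma adjusted p = 0.641). RPS26 averaged 3915 ± 212 with Noggin and 3690.3 ± 324 with Tris (0.088, limma adjusted p = 0.466). None of the 6 was called. RACK1, the scaffold protein bound to the small subunit, is outside the symbol rule and gave 0.13 (adjusted p = 0.236).

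Genes with several bright probe sets allowed a check within the gene. Of the 65 genes 31 had a single probe set, and 12 had at least 2 with a mean of 1000 or more. In those 12 the brightest pair differed in the average Noggin effect by a median of 0.050 log2, and in the average RA effect by at most 0.064. For scale, the median differences of the 64 genes were 0.046 for Noggin and 0.067 for RA. The widest gap was that of RPL36, whose probe sets of mean 3606 and 3306 gave 0.22 and -0.034 for Noggin and correlated at 0.370 over the 12 arrays. The pairs of RPS15A (0.150) and RPS7 (0.299) correlated less, and the highest correlation was that of RPL4 (0.954). Of the 73 probe sets that were not the brightest of their gene, 56 passed the filter, and 0 of them were called by limma in Noggin+RA against Tris+DMSO or in either average effect.

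Genes that act with the ribosomal proteins were read from lists of general knowledge. Of 67 mitochondrial ribosomal protein genes, which serve the separate ribosome of mitochondria, 64 were tested, and the average Noggin effect raised 1 (MRPL55) and lowered 2 (MRPS35 and MRPS6). Their median was -0.022 for Noggin and -0.0049 for RA. MRPS35, a protein of the small mitochondrial subunit, averaged 302 ± 52.8 in the Noggin+RA pools, 285 ± 26.4 in the Noggin+DMSO pools, 453 ± 9.32 in the Tris+RA pools and 454 ± 66.5 in the Tris+DMSO pools (SD, n = 3; log2 difference -0.61, SE 0.0994, adjusted p = 0.00554 by limma). MRPS6 had a log2 difference of -0.57 (adjusted p = 0.0193) and MRPL55 one of 0.26 (adjusted p = 0.0393), which was lost in 11 of the 12 fits that leave out 1 array (adjusted p up to 0.0888). In all, 3 of 64 mitochondrial and 1 of 64 cytosolic genes were called in the average Noggin effect, beside 11.2% of all probe sets.

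Ribosome assembly factors had the lowest median for Noggin among the lists of the translation machinery. Of 60 tested, 5 fell and 1 rose in the average Noggin effect, the rest not passing the test, and the median was -0.11. Of the 60 genes 15 were above 0, where 59.4% of all tested probe sets were. NVL, an ATPase of large subunit assembly, averaged 105 ± 11.0 in the Noggin+RA pools, 73.2 ± 22.7 in the Noggin+DMSO pools, 132 ± 32.8 in the Tris+RA pools and 187 ± 32.8 in the Tris+DMSO pools (SD, n = 3; log2 difference -0.74, SE 0.150, adjusted p = 0.0151 by limma). WDR12, a partner of PES1 and BOP1 in large subunit processing, fell by 0.45 on the log2 scale (adjusted p = 0.0205). On the same scale the RNA helicase DDX18 fell by 0.50 (adjusted p = 0.0246), the large subunit assembly factor RPF1 by 0.38 (adjusted p = 0.0165) and the large subunit export adaptor NMD3 by 0.30 (adjusted p = 0.0378). PDCD11, a factor of ribosomal RNA processing, rose by 0.36 (adjusted p = 0.0162). In Noggin+DMSO against Tris+DMSO 3 of 60 fell (NVL, DDX18 and RPF1), beside 4.95% of all probe sets called. There the call of DDX18 was lost in 4 of 6 fits that leave out 1 array (adjusted p up to 0.0816) and that of RPF1 in 2 (up to 0.0679). The median was -0.13, with 10 of 60 above 0, where 58.3% of all probe sets were. In Noggin+RA against Tris+DMSO none was called by limma (15 at an unadjusted p below 0.05). There the median was -0.15, with 15 above 0, where 56.6% of all probe sets were. Without Tris+DMSO replicate 3 the list's medians were -0.12 (average Noggin), -0.14 (Noggin+DMSO against Tris+DMSO) and -0.13 (Noggin+RA against Tris+DMSO). The share of the list called in the average, 6 of 60, is close to the 11.2% of all probe sets. None of the 6 calls was kept with the GAPDH ratio as covariate (adjusted p between 0.388 and 0.866). In that fit Noggin and the ratio can hardly be told apart and no probe set at all was called, so the loss says nothing particular to this list. The log2 differences there were -1.53 for NVL, -0.34 for WDR12, -0.31 for RPF1, -0.32 for DDX18, -0.17 for NMD3 and 0.29 for PDCD11. Of the 12 fits that leave out 1 array, the call of NMD3 was lost in 9 (adjusted p up to 0.0885), that of DDX18 in 6 (up to 0.0603) and that of WDR12 in 1, without Noggin+RA replicate 3 (0.0513).

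The remaining lists are read beside the 11.2% of all probe sets called in the average Noggin effect and the 30.6% at an unadjusted p below 0.05. Of 14 tested genes for elongation factors and further TOP mRNAs, 1 rose with Noggin: EEF1G, a subunit of the elongation factor that reloads EEF1A with GTP (log2 difference 0.34, SE 0.0716, adjusted p = 0.0172 by limma). None of 19 initiation factors was called by limma in the average Noggin effect (4 at an unadjusted p below 0.05, median -0.059), and none of 11 RNA polymerase I genes (0 at an unadjusted p below 0.05, median -0.033). Of 15 genes of the mTOR and S6 kinase pathway and of regulators of TOP mRNAs 2 were called. LARP4, which binds poly(A) tails, fell by 0.43 on the log2 scale (adjusted p = 0.00682), and LARP1, which represses TOP mRNAs, rose by 0.34 (adjusted p = 0.0469). The call of LARP1 was lost in 10 of the 12 fits that leave out 1 array (adjusted p up to 0.0981). Of 10 tested p53 targets none was called by limma (0 at an unadjusted p below 0.05 for Noggin), and their median was 0.11 for Noggin and -0.035 for RA. For RA none of these lists had a call by limma, and at an unadjusted p below 0.05 there were 3 mitochondrial ribosomal protein, 3 assembly factor, 0 elongation and TOP, 0 initiation factor, 0 RNA polymerase I, 0 mTOR and 0 p53 target genes, beside 9.63% of all probe sets. With the GAPDH ratio as covariate, where Noggin and the ratio can hardly be told apart, no probe set was called in the average Noggin effect. The log2 differences there were -0.85 for MRPS35, -0.067 for MRPS6, 0.16 for MRPL55, 0.34 for EEF1G, -0.45 for LARP4 and 0.33 for LARP1.

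**Figure D5:**
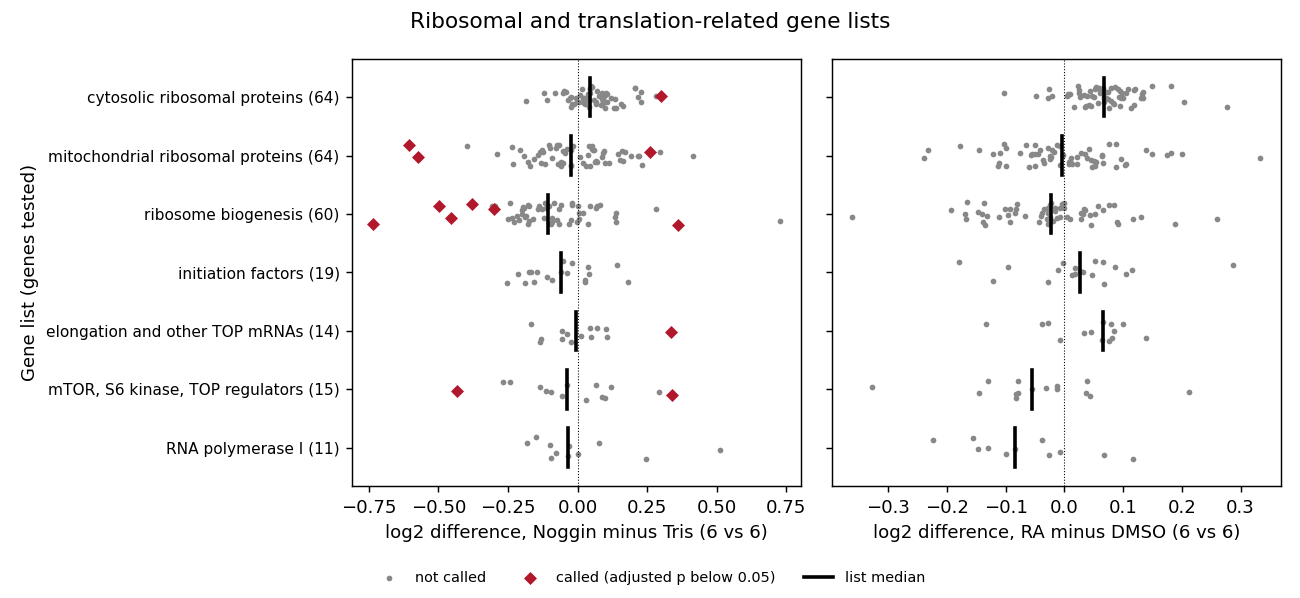
log2 differences of the genes of each list for Noggin minus Tris (left) and RA minus DMSO (right), 6 arrays against 6, with a bar at the list's median; the horizontal scales of the panels differ. The cytosolic ribosomal proteins lie between -0.19 and 0.30 for Noggin, with 1 call, and the ribosome biogenesis list has 6.

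The tissue label was checked against marker genes. Of 12 facial mesenchyme markers 9 were above background on all arrays, COL1A2 and PRRX1 among them, and ALX4 was above it on 0; of 10 surface epithelium markers on the array 7 were, EPCAM and CDH1 among them. Summed marker signals were 5460.2 to 6207 with Noggin and 5228 to 7208 with Tris for facial mesenchyme and 6079 to 7569.9 with Noggin and 4922 to 6757 with Tris for surface epithelium. They were 1071 to 2396 with Noggin and 1086 to 1688 with Tris for white blood cells, 2685 to 3113 with Noggin and 2903 to 3553 with Tris for endothelium, and 1250.2 to 2251 with Noggin and 964 to 1614 with Tris for skeletal muscle. For neurons and cranial ganglia they were 1651 to 5089.9 with Noggin and 1494 to 5847 with Tris, for lens 446 to 738 with Noggin and 434 to 700.3 with Tris, and for retina and pigment epithelium 724 to 1258 with Noggin and 506 to 820.3 with Tris. Only 6 of 13 muscle, 6 of 9 neuron, 3 of 8 lens and 3 of 8 retina markers on the array were above background on all arrays. The background level was 39.6 to 49.0 on the Noggin arrays and 31.1 to 38.3 on the Tris arrays. It was not subtracted, so sums of dim markers include it. Single markers were called in the average Noggin effect by limma, which called 11.2% of all tested probe sets. In that effect 59.4% of all tested probe sets had differences above 0. Of 11 tested facial mesenchyme markers 2 rose (DLX5 and PDGFRA) and 4 fell (MSX2, PRRX1, PRRX2 and MSX1), and of 10 of surface epithelium 2 rose (CLDN4 and GRHL3). All 9 red blood cell markers had differences above 0 and 3 rose (SLC4A1, ANK1 and TAL1), with a median of 0.41, or 0.26 without Tris+DMSO replicate 3. CD74 rose as 1 of 6 tested white blood cell markers, and VWF as 1 of 10 of endothelium, of which 6 had differences above 0. OTX2 and TYR rose among 5 tested markers of retina and pigment epithelium. Among 10 of skeletal muscle, MYL1 and TNNC1 rose and MYF5 fell. None of 8 neuron and cranial ganglion markers or 4 lens markers was called. In such pooled tissue fewer cells of a type and less RNA per cell cannot be told apart, and the part of these lists in the ribosomal values was not tested.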

How the data were processed

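Per the labels' protocols, 500 ng of total RNA of each pool was labelled with biotin in the two-cycle Affymetrix procedure and hybridised to 1 array. The authors deposited a linear intensity per probe set; the summarisation software is not given in the sources used here. With the top and bottom 2% of the table's 38535 probe sets removed, the mean of every array was 150.0, which shows a scaling to a common trimmed mean. Such a scaling multiplies all values of an array by 1 factor, and probe sets outside that range do not enter the mean that sets it. Gene symbols were those of the platform's probe annotation, and all 65 genes matched the RefSeq gene table (assembly GRCg7b), used for names only.

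The 37693 chicken probe sets were analysed as log2(intensity + 16). Those above the median of their own array on at least 3 of 12 arrays were tested (21354). A model with 1 mean per group over all 12 arrays was fitted in limma 3.58.1 (lmFit, eBayes, R 4.3.3), with two-sided tests, Benjamini-Hochberg adjustment over all 21354 probe sets and a call at an adjusted p below 0.05. The 8 comparisons were the 3 treated groups against Tris+DMSO, Noggin+RA against each single factor, the interaction and the average effects of Noggin and RA, 6 arrays against 6. Array measures were compared by exact two-sided permutation tests, adjusted over 5 measures. Fold changes are ratios of intensity + 16, which understates changes of dim genes, and the number of arrays limits the precision. No 2 arrays held identical values. The labels call the pools biological replicates. The fit was tested on simulated data with independent noise in each probe set and with changes larger than any seen here in the ribosomal genes. That test does not tell how well small changes, or shifts shared by many genes of an array, are found.

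The gene set, the lists and the rule for names were chosen with earlier results of these data known. Every gene of the set could be named: in each comparison those called, or else the 3 largest and 3 smallest differences, the genes with extreme SD, those with a special role, and called genes of the other lists; genes singled out for not overlapping or for an unadjusted p were chosen after their values were seen. Replicate numbers did not pair the arrays: deviations from the group means correlated between arrays of the same number at a median of -0.0087 (18 pairs, -0.098 to 0.069). The alternatives were other offsets (1 and 64), scalings, filters and thresholds, only the groups compared, the replicate number as a block, the GAPDH ratio as a covariate, a gene value averaged over its probe sets and leaving out arrays.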

Additional observations from a re-analysis of the deposited data

How the results depend on the processing

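Of the 461 values recomputed for counts and medians, 357 kept their direction and stayed within the limits of the same value. No called gene changed sign. No ribosomal protein gene was called in 6 of the 8 comparisons under any alternative. In Noggin+DMSO against Tris+DMSO 1 (RPLP1) was called after quantile normalisation and 1 at an adjusted p below 0.10. In the average Noggin effect the count of 1 became 2 with an offset of 64, after quantile normalisation and with the filter on all 12 arrays (RPL35A and RPLP1 each time), and 3 at an adjusted p below 0.10. It became 0 with median centring, with the GAPDH covariate, with values averaged over the probe sets of each gene and with the replicate number as a block (RPLP1 adjusted p = 0.0521), though that number did not pair the arrays. The count was also 0 without both Tris+DMSO replicate 3 and Noggin+RA replicate 2, an alternative chosen after seeing the data. When 1 array was left out it was 0 to 2. The cause was not tested.

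The median of the set turned to -0.042 (Noggin+RA against Tris+DMSO), -0.21 (Noggin+DMSO against Tris+DMSO), -0.10 for the pair Noggin+RA and Tris+RA, 0.089 (interaction) and -0.15 (average Noggin) with the GAPDH covariate, and to -0.036 in the first without both named arrays. Leaving out 1 array gave medians of 0.022 to 0.21 (Noggin+RA against Tris+DMSO), -0.047 to 0.14 (Noggin+DMSO against Tris+DMSO), -0.015 to 0.16 (Tris+RA against Tris+DMSO), 0.0015 to 0.085 for the pair Noggin+RA and Tris+RA, -0.00086 to 0.096 (Noggin+RA against Noggin+DMSO), -0.11 to 0.070 (interaction), -0.00020 to 0.088 (average Noggin) and 0.023 to 0.11 (average RA).

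Counts over all probe sets moved more. Noggin+RA against Tris+DMSO (173) gave 305 with offset 64, 63 without a filter, 275 with the filter on all arrays, 4 with only the groups compared, 83 with the replicate block, 422 at 0.10, 2 with the GAPDH covariate, 47 without both named arrays and 33 to 117 without 1 array. Noggin+DMSO against Tris+DMSO (1058) gave 676 without a filter, 531 with only its groups, 2514 at 0.10, 0 with the covariate, 597 without both arrays and 259 to 802 without 1. Tris+RA against Tris+DMSO (0) gave 10 with offset 64, 2 with median centring, 10 with the filter on all arrays, 2 at 0.10 and 0 to 21 without 1 array. Noggin+RA against Tris+RA (46) gave 18 and 72 with offsets 1 and 64, 28 after quantile normalisation, 16 without a filter, 1 with only its groups, 12 with the block, 118 at 0.10, 0 with the covariate, 7 without both arrays and 12 to 37 without 1. Noggin+RA against Noggin+DMSO (95) gave 51 and 155 with offsets 1 and 64, 45 without a filter, 32 with only its groups, 42 with the block, 196 at 0.10, 1 with the covariate, 48 without both arrays and 25 to 58 without 1. The interaction (0) gave 1 with offset 64, 2 with the filter on all arrays and 0 to 1 without 1 array. Average Noggin (2400) gave 4487 at 0.10, 0 with the covariate and 1078 to 2324 without 1 array. Average RA (175) gave 80 without a filter, 82 with the block, 298 at 0.10, 46 with the covariate, 84 without both arrays and 51 to 190 without 1.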
